A study of Mus musculus with 14 samples.

Results

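The regions described here are the sites in the genome of Hoxb8-FL cells where chromatin immunoprecipitation with sequencing (ChIP-seq) gave a peak for both Tal1 and Lyl1, a pair of closely related blood transcription factors. They were chosen by position, as every peak of the Lyl1 list on an autosome or the X chromosome that overlapped a Tal1 peak by 1 bp or more. Of 8903 Lyl1 peaks, 8141 met this rule, which is 91.4% (exact Clopper-Pearson 95% interval 90.8 to 92.0%). Counted from the other list, 8143 of 17193 Tal1 peaks overlapped a Lyl1 peak, or 47.4% (46.6 to 48.1%). The 8141 shared peaks are set beside the 9050 Tal1 peaks without Lyl1, the 762 Lyl1 peaks without Tal1, and the 121980 merged regions that hold a peak of any of the 13 factors, which can be wider than a single peak. Because the positions of Tal1 and Lyl1 peaks chose the regions, these counts are a description and carry no test.

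The series holds 14 ChIP-seq libraries of the mouse progenitor line Hoxb8-FL, 1 for each of 13 transcription factors (Tal1, Lyl1, Lmo2, Gata2, Runx1, Erg, Fli1, Spi1, Cebpa, Cebpb, Gfi1, Gfi1b and Meis1) and 1 with control IgG. Every library came from the same untreated line, which the labels liken to lymphoid-primed multipotent progenitors (LMPP) and which grows in estradiol and FLT3 ligand. Estradiol keeps an estrogen-dependent Hoxb8 active in such lines, so all libraries share that forced factor as well. Chromatin was fixed for 10 min with 0.4% or 1% formaldehyde, and which factor had which concentration was not stated. Since the lists hold peak positions only, the labelled cell identity could not be set against the expression of marker genes. With 1 library per factor there is no replicate check and no p-value, depth is unknown, and all intervals are exact 95% intervals that cover counting error only.

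Tal1 (also called SCL) and Lyl1 are paralogous basic helix-loop-helix proteins. Each binds DNA as a dimer with an E protein such as Tcf3, at the E-box CANNTG, and Lmo2 with Ldb1 can bridge that dimer to a GATA factor on neighbouring DNA. In mice Tal1 is needed to make the first blood cells and later for red cells and megakaryocytes, and Lyl1 and Tal1 can cover for each other in adult blood stem cells. Cbfa2t3 (Eto2) is a corepressor that joins the same complexes.

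To show the sequence at such sites, 6 promoters that a shared peak overlaps in whole or in part are printed. They are those of genes in fixed blood lists with the most other factors on the window. Each runs 5′ to 3′ along the gene from 250 bases before to 50 bases after a RefSeq transcription start (build GRCm38.p6). Capitals mark 2 motifs found by letter matching on both strands, namely the E-box form CAGNTG and GAGGAAGT, the form usually given for Spi1. The windows are Mcpt8 at chr14:56085148-56085447 on the minus strand, Gfi1b at chr2:28621933-28622232 minus, Cbfa2t3 at chr8:122699060-122699359 minus, Itga2b at chr11:102469834-102470133 minus, Mpo at chr11:87793534-87793833 plus and Ctsg at chr14:56102525-56102824 minus.
Mcpt8: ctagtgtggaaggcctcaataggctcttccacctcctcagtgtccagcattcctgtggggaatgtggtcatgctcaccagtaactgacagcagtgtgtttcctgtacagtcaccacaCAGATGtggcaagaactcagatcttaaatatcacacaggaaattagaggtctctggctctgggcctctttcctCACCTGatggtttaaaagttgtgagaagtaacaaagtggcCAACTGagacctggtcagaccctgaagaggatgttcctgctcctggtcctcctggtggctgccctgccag
Gfi1b: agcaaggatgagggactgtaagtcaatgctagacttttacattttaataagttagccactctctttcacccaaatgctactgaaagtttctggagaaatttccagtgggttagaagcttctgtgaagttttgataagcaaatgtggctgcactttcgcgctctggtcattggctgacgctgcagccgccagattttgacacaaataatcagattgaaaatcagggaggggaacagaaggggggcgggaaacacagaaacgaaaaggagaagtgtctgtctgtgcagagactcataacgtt
Cbfa2t3: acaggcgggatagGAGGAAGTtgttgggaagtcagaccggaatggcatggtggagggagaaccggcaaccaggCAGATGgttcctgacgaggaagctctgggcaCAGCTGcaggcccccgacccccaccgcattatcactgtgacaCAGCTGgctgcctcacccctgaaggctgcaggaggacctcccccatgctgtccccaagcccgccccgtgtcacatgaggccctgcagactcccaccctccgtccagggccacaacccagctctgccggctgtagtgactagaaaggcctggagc
Itga2b: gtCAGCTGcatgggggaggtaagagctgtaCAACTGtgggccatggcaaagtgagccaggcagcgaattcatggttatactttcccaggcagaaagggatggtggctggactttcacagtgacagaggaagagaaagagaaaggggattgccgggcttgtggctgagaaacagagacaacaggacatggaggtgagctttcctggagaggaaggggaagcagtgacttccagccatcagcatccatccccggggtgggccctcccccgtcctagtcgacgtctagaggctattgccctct
Mpo: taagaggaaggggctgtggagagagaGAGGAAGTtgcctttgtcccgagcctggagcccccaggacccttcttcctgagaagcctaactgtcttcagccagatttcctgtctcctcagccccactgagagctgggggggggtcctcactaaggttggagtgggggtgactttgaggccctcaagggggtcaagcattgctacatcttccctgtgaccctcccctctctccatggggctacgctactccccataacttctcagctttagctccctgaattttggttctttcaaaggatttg
Ctsg: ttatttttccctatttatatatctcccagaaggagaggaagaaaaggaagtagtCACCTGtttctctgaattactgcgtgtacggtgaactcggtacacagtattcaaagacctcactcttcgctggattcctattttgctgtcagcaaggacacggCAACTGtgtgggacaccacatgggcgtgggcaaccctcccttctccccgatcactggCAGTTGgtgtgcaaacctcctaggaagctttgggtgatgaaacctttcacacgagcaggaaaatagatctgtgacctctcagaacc

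These genes belong to several blood lineages. Mcpt8 encodes a basophil granule protease, Itga2b the platelet integrin alpha chain CD41, and Mpo and Ctsg the granule enzymes myeloperoxidase and cathepsin G. Gfi1b encodes a transcriptional repressor that acts in the erythroid and megakaryocytic lineages. Peaks of 9 of the 11 other factors lay on the Mcpt8, Gfi1b, Cbfa2t3 and Itga2b windows, and peaks of 8 on the Mpo and Ctsg windows. The Mcpt8, Cbfa2t3 and Ctsg windows held 3 CAGNTG matches each and the Itga2b window 2, while the Gfi1b and Mpo windows held 0. GAGGAAGT occurred 1 time in the Cbfa2t3 window and 1 time in the Mpo window. These counts are over whole windows. The shared peak covered all 300 bases of the Mcpt8 window, 259 of Gfi1b, 244 of Cbfa2t3, 241 of Mpo, 194 of Ctsg and 145 of Itga2b. The first CAGNTG match printed for Ctsg lies outside the peak. Mcpt8 and Ctsg are neighbours on chromosome 14, so their surroundings share peaks.

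Promoters are a small part of the shared peaks. Of 17273 protein-coding genes with a RefSeq promoter window, 203 had a window on a shared peak, which is 1.18%, and these genes had 218 of the 21044 windows. The Tal1 peaks without Lyl1 lay on 167 windows of 153 genes. Base composition was near the background, with 55.4 ± 7.85% G+C in windows on shared peaks (SD over 218 windows), 55.2 ± 9.43% in windows on Tal1 peaks without Lyl1 (SD over 167) and 56.4 ± 11.5% over all windows (SD over 21044). Each motif below was searched on both strands by letters alone, and a match is not a measured binding site. The whole window was searched, also where only part of it lay under a peak.

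Windows on shared peaks held the E-box form CAGNTG in 69.3% of cases (62.7 to 75.3%), against 53.3% (45.4 to 61.0%) of windows on Tal1 peaks without Lyl1 and 48.6% of all promoter windows. Within that form, CAGCTG was found in 32.6% of windows on shared peaks, 16.8% on Tal1 peaks without Lyl1 and 15.7% over all windows. The forms CAGGTG and CAGATG lay closer together, at 24.8% and 23.4% on shared peaks, 18.6% and 22.2% on Tal1 peaks without Lyl1, and 19.9% and 14.4% over all windows. The remaining form, CAGTTG, was not counted on its own, and the single forms were chosen after other values were seen. The wider E-box CANNTG, which contains all of these, was in 84.4% of windows on shared peaks, 76.6% on Tal1 peaks without Lyl1 and 69.0% over all windows.

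Letters of the partner families were also counted. GAGGAAGT was in 17.0% (12.2 to 22.6%) of windows on shared peaks, 9.58% on Tal1 peaks without Lyl1 and 3.15% over all windows. TGTGGT, read by Runx proteins, stood at 29.4% on shared peaks and 29.3% on Tal1 peaks without Lyl1, against 14.8% over all windows. The GATA core was in 62.4% on shared peaks, 56.9% on Tal1 peaks without Lyl1 and 52.8% over all windows, and the longer AGATAA in 15.6%, 15% and 9.68% in the same order. TGATAA was in 8.72% on shared peaks, 8.38% on Tal1 peaks without Lyl1 and 7.51% over all windows. TTGCNNAA, a C/EBP form, was in 15.6% on shared peaks, 13.8% on Tal1 peaks without Lyl1 and 10.3% over all windows. The ETS core GGAA was nearly everywhere, at 96.8% on shared peaks, 98.2% on Tal1 peaks without Lyl1 and 95.7% over all windows, and ACTTCCGG was in 4.59%, 5.39% and 5.20%.

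The composite element of an E-box and a GATA core 9 bases apart, which the Tal1 and GATA complex is known to read in red cells, was found in 1 of the 218 windows on shared peaks. That is 0.459%, against 1.2% of windows on Tal1 peaks without Lyl1 and 0.527% of all windows. The match lies in the Cbfa2t3 promoter, in the orientation against the gene and with its first base 117 bases before the start, on chr8:122699060-122699359. Printed along the gene, with capitals for the GATA core read on the opposite strand and for the E-box, it is the following.
Cbfa2t3 element: TATCactgtgacaCAGCTG

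The overlap of the 2 lists was close to complete at nearly every shared peak. All peaks of the series were deposited at a fixed width of 400 bp, and the median overlap between a shared Lyl1 peak and Tal1 was 378 bp, with a 5th percentile of 320 bp and a 95th of 398 bp. An overlap of 200 bp or more was found for 8106 shared peaks (99.6%). The 3 peaks just inside the rule overlapped Tal1 by 2, 5 and 7 bp and held 7, 4 and 3 other factors. The 3 just outside lay 4, 18 and 19 bp from a Tal1 peak and held 3, 0 and 5 other factors.

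The share also moved with the place of a peak in its list. The lists carry no score, and what their line order means is not stated. In the first decile of the Lyl1 lines 100% of 890 peaks overlapped Tal1, in the fifth decile 97.4% and in the last decile 72.3%. The Lyl1 peaks without Tal1 were therefore mostly late in the list, with 94.8% of them in its last 50%, against 45.8% of the shared peaks.

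The shared peaks were crowded with other factors. A shared peak overlapped 6.13 ± 2.38 of the 11 other factors (SD over 8141 peaks), a Tal1 peak without Lyl1 2.48 ± 2.45 (SD over 9050) and a Lyl1 peak without Tal1 3.92 ± 2.27 (SD over 762). Only 9 shared peaks, 0.111%, stood with none of the 11, against 34.1% of the Tal1 peaks without Lyl1 and 3.81% of the Lyl1 peaks without Tal1. At least 8 other factors were present at 32.1% of shared peaks (31.0 to 33.1%), at 3.36% (3.0 to 3.75%) of Tal1 peaks without Lyl1 and at 6.82% (5.14 to 8.85%) of Lyl1 peaks without Tal1. The count per shared peak had its mode at 7 factors, with 1253 peaks, and all 11 were present at 40 peaks. Peaks are not replicates, and the SD describes their spread only.

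Lmo2, the bridging protein of the Tal1 complex, was the factor most often found with them. It overlapped 98.2% of shared peaks (all but 146), against 56.5% of Tal1 peaks without Lyl1, 84.0% of Lyl1 peaks without Tal1 and 21.9% of all merged regions. Gata2, the GATA factor of blood stem cells and mast cells, was at the other end. It overlapped 3.07% of shared peaks, 0.740% of Tal1 peaks without Lyl1, 1.44% of Lyl1 peaks without Tal1 and 2.64% of all merged regions. The Gata2 list was the shortest of the series with 3217 peaks, and the Lmo2 list held 26738.

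Of the ETS family, Fli1 overlapped 83.9% of shared peaks, 29.0% of Tal1 peaks without Lyl1 and 51.6% of Lyl1 peaks without Tal1, with 18.1% over all regions. Erg, its close relative, was at 52.5% of shared peaks, 9.49% of Tal1 peaks without Lyl1, 26.4% of Lyl1 peaks without Tal1 and 7.39% of all regions. Runx1, which with Erg and Fli1 is needed for blood stem cells in mice, was at 55.7%, 15.4% and 26.5% of the same 3 sets and at 9.60% of all regions. Each of these 3 factors was thus found on a larger share of the shared peaks than of either unshared set. The sets also differed in their place in the lists, and no test was made.

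The myeloid factors had the longest lists of the other factors, and thus the highest shares over all regions. Spi1 (PU.1), the ETS factor that drives myeloid and early B cell genes, was at 77.3% of shared peaks, 43.2% of Tal1 peaks without Lyl1 and 62.7% of Lyl1 peaks without Tal1, but its 76378 peaks also covered 62.6% of all regions. Cebpb was at 70.1% of shared peaks, 31.6% of Tal1 peaks without Lyl1, 46.5% of Lyl1 peaks without Tal1 and 30.9% of all regions. Cebpa, the regulator of granulocyte fate, followed with 67.2%, 30.1%, 43.6% and 28.7% in the same order. For the C/EBP factors the shares of Tal1 peaks without Lyl1 were close to those of all regions, and for Spi1 lower. The shared peaks had higher shares than all regions for all 3. A merged region is counted only because some factor has a peak there, so the share of each factor mainly follows the length of its list. The comparison with all regions therefore cannot show whether the myeloid factors were depleted or enriched at either set of Tal1 peaks.

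The repressors Gfi1 and Gfi1b and the homeodomain factor Meis1, a partner of Hox proteins, were found less often. Gfi1 was at 39.7% of shared peaks, 8.74% of Tal1 peaks without Lyl1, 16.9% of Lyl1 peaks without Tal1 and 7.77% of all regions. Meis1 was at 35.6%, 14.0%, 16.9% and 11.3%, and Gfi1b at 29.5%, 8.61%, 15.9% and 7.11% in the same order. All 11 factors were more frequent on shared peaks than on Tal1 peaks without Lyl1. The plot of the share per factor shows the 3 sets beside each other.

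**Figure D1:**
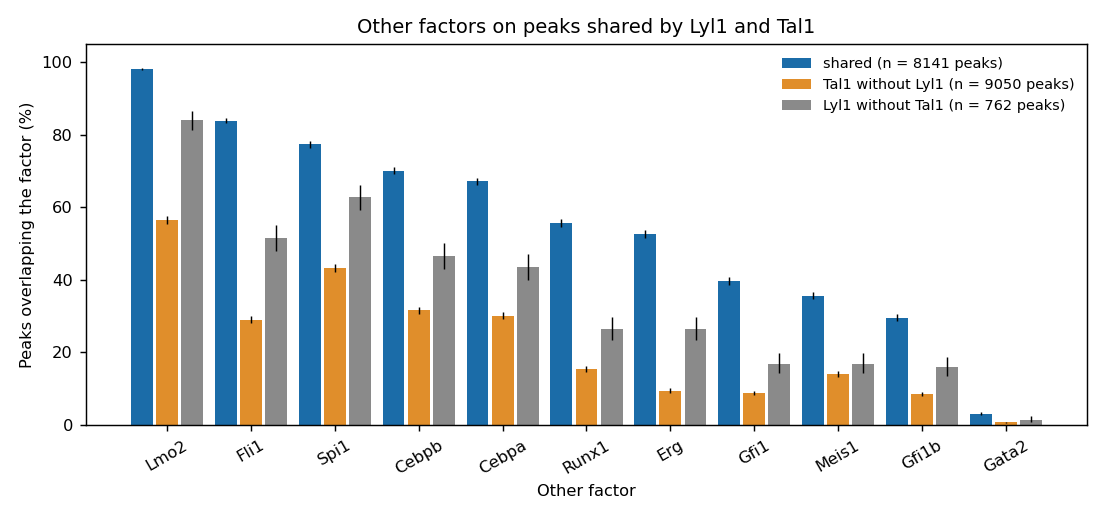
Share of peaks, in percent, that overlap a peak of each of the 11 other factors, for shared peaks, Tal1 peaks without Lyl1 and Lyl1 peaks without Tal1, with exact 95% intervals for counting error. Lmo2 stands highest on shared peaks at 98.2% and Gata2 lowest at 3.07%.

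Read from the list of each factor, the shared peaks took very unequal parts. Of all Erg peaks 47.4% lay on a shared peak, of Runx1 peaks 38.7%, of Gfi1 peaks 34.0%, of Fli1 peaks 31.0% and of Lmo2 peaks 29.9%. The parts were 27.7% for Gfi1b, 21.1% for Meis1, 15.6% for Cebpa, 15.1% for Cebpb, 8.24% for Spi1 and 7.77% for Gata2. A long list has more peaks that can lie elsewhere, so these parts also move with list length.

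The number of other factors moved with line order as well. Along the Lyl1 list, the mean per shared peak was 8.43 in the first decile and 4.66 in the last. Over the same ends of the list, Erg was at 91.9% and 29.5% of shared peaks, Gfi1 at 85.5% and 18.2%, Runx1 at 88.8% and 33.2%, and Gata2 at 8.43% and 0.932%. Lmo2 moved least, from 99.6% in the first decile to 96.0% in the last, and Spi1 stood at 86.7% in the first and 69.4% in the last. Fli1 stood at 99.8% and 64.4%, Cebpa at 87.0% and 54.5%, Cebpb at 89.1% and 55.7%, Meis1 at 56.2% and 24.5%, and Gfi1b at 50% and 19.1%.

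The sets were also compared by place in the Tal1 list. In the first 50% of the Tal1 lines, the 6896 peaks with Lyl1 held a mean of 6.41 other factors and the 1700 without Lyl1 a mean of 4.30. Erg was at 56.8% of those with Lyl1 and 19.9% of those without, Fli1 at 87.3% with and 53.8% without, Runx1 at 60.2% with and 31.2% without, and Gfi1 at 43.3% with and 16.5% without. Lmo2 was close in both, at 98.6% with Lyl1 and 93.7% without, a difference of 4.93 percentage points, while in the last 50% of the lines the difference was 47.9 percentage points. Gata2 stood at 3.28% with and 1.18% without. The first 50% is not an even match, since the peaks with Lyl1 lie mostly in its first 3 deciles and those without mostly in the fourth and the fifth. Within those single deciles the sets lay closer. The means were 5.49 for the 1151 peaks with Lyl1 and 4.49 for the 569 without in the fourth decile, and 5.06 for the 842 with and 4.09 for the 877 without in the fifth. In the eighth decile the means were 4.31 for the 192 peaks with Lyl1 and 2.13 for the 1527 without. At the ends of the list one set is small, with 7.76 for the 1715 with Lyl1 and 5.0 for the 4 without in the first decile, and 3.85 for the 39 with and 0.806 for the 1681 without in the last.

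**Figure D2:**
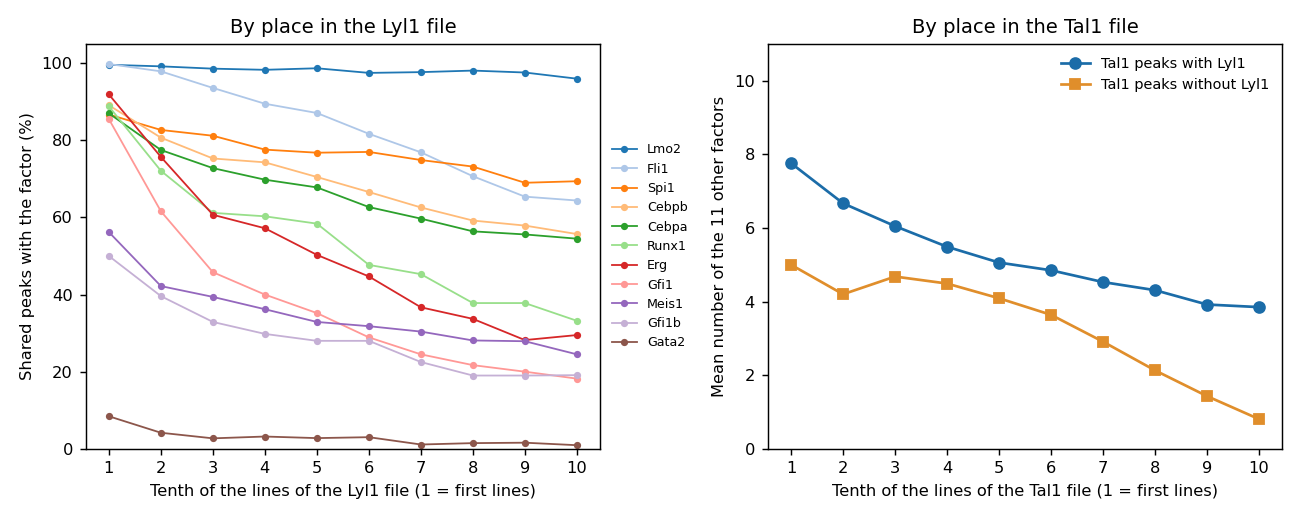
Left, share of shared peaks in percent with each of the 11 other factors, by decile of the lines of the Lyl1 list; right, mean number of other factors per Tal1 peak with and without Lyl1, by decile of the Tal1 list. Lmo2 stays between 99.6% and 96.0% at the ends of the Lyl1 list while Erg stands at 91.9% and 29.5%, and Tal1 peaks with Lyl1 lie above those without in every decile.

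The other factors came in many combinations. Of 2048 possible combinations of the 11 factors, 514 were seen on shared peaks. The most frequent was every factor but Gata2, at 492 peaks (6.04%). Next came Cebpa, Cebpb, Erg, Fli1, Lmo2, Runx1 and Spi1 together at 386 peaks (4.74%), and every factor but Gata2 and Meis1 at 324 (3.98%). Smaller sets were also frequent, with Fli1, Lmo2 and Spi1 at 278 peaks (3.41%) and Lmo2 alone at 198 (2.43%). Lmo2, Runx1, Erg and Fli1 were all present at 3039 shared peaks (37.3%). With Gata2 added, which together with Tal1 and Lyl1 completes the set known in blood stem and progenitor cells as the heptad, the count was 143 (1.76%).

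Related factors were compared on the shared peaks. Erg without Fli1 was rare, at 52 shared peaks (0.639%), while both were at 51.9%, Fli1 without Erg at 32.0% and neither at 15.5%. Both C/EBP factors were at 62.4% of shared peaks and neither at 25.1%. Gfi1 and Gfi1b were together at 24.5%, Gfi1 without Gfi1b was at 15.2%, Gfi1b without Gfi1 at 5.09% and neither at 55.3%. Of the 1844 shared peaks without Spi1, 63.2% held Cebpa or Cebpb, and 679 shared peaks (8.34%) held none of these 3 myeloid factors.

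Some pairs of other factors went together within the shared peaks and some did not. Erg was at 68.5% of shared peaks with Runx1 and 32.4% of those without, and Runx1 at 75.3% of those with Gfi1 and 42.8% of those without. Runx1 was at 65.3% of shared peaks with Cebpb and 33.1% without, and Spi1 at 82.5% with Fli1 and 50.3% without. Lmo2 was at 98.2% both with and without Meis1. These shares all move with line order in the same direction, and its part in them was not tested.

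The 5 shared peaks that overlapped Tal1 most among those with all 11 factors lie in Snd1 (chr6:28497825-28498224), in Erg (chr16:95439190-95439589), in Tnfaip8 on chromosome 18, 38.2 kb outside Eml4 (chr17:83312546-83312945) and 204 kb outside Slc24a2 (chr4:87434115-87434514). Among those with none of the 11 that overlapped Tal1 most, 4 lie in Gfod1 (chr13:43217079-43217478), in Popdc2 (chr16:38368251-38368650), in Col15a1 (chr4:47302562-47302961) and 218 kb from Rasa1 (chr13:85506867-85507266). The nearest gene is named by position only, and expression was not part of these data.

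The midpoints of the factors were not spread alike within the shared peaks. Lmo2 lay closest, with a median distance of 18 bp from the Lyl1 midpoint and an interquartile range of 8 to 34 bp. Tal1 had a median of 22 bp (10 to 41 bp). Fli1 had a median of 24 bp, Erg of 25 bp, Runx1 of 29 bp, Gfi1 of 35 bp and Gata2 of 38 bp. Spi1 stood at 41 bp, Cebpa and Gfi1b at 45 bp, Cebpb at 46 bp and Meis1 at 49 bp (23 to 90 bp). Within 50 bp of the Lyl1 midpoint lay 89.3% of the Lmo2 peaks on shared peaks, 83.0% of the Tal1 peaks and 51.2% of the Meis1 peaks. The distances overlap widely, and the sources used here do not say how the deposited midpoints were set.

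**Figure D3:**
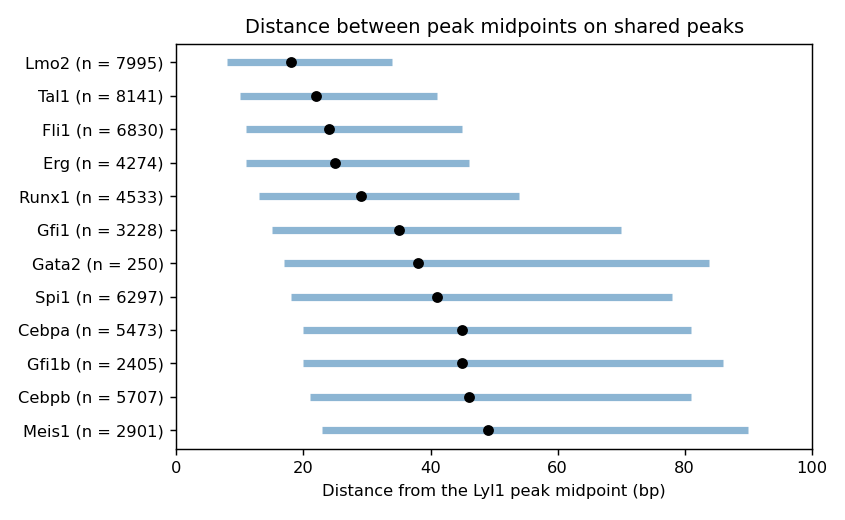
Distance in bp between the midpoint of a shared Lyl1 peak and the midpoint of the Tal1 or other factor's peak that overlaps it, as median (point) and interquartile range (bar). Lmo2 has the lowest median at 18 bp and Meis1 the highest at 49 bp.

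Most shared peaks lay away from listed transcription starts. The starts used were listed for 17273 of the 21627 protein-coding genes. Fli1, Lmo2, Spi1, Csf1r and Itgb3 were among the genes without one. A peak at an unlisted start counts as farther away, so shares near a start are minimum values and distances are maximum values. Within 1 kb of a start listed in RefSeq lay 355 shared peaks, which is 4.36% (3.93 to 4.83%). The share was 3.01% (2.66 to 3.38%) for Tal1 peaks without Lyl1, 14.0% (11.7 to 16.7%) for Lyl1 peaks without Tal1 and 9.26% for all regions. The median distance to a listed start was 35.2 kb for shared peaks, 46.1 kb for Tal1 peaks without Lyl1, 25.8 kb for Lyl1 peaks without Tal1 and 34.4 kb for all regions. Over 100 kb from any listed start lay 25.7% of shared peaks, 32.2% of Tal1 peaks without Lyl1, 21.9% of Lyl1 peaks without Tal1 and 27.6% of all regions. Within the first 50% of the Tal1 lines these differences between the Tal1 sets were smaller. There 4.28% (3.81 to 4.78%) of peaks with Lyl1 and 4.06% (3.17 to 5.11%) of those without lay within 1 kb of a start, the median distances were 35.2 kb with and 37.7 kb without, and 25.9% with and 27.9% without lay over 100 kb away. Inside a gene body lay 53.6% of shared peaks, 52.0% and 53.1% of the unshared Tal1 and Lyl1 peaks, and 54.2% of all regions.

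Counting both ends of genes, 6.35% (5.83 to 6.90%) of shared peaks lay within 1 kb of a boundary of a protein-coding gene, against 5.34% (4.88 to 5.82%) of Tal1 peaks without Lyl1, 18.1% (15.4 to 21.0%) of Lyl1 peaks without Tal1 and 11.9% of all regions. The small excess over Tal1 peaks without Lyl1 was not seen within the first 50% of the Tal1 lines, where the shares were 6.28% with Lyl1 and 6.35% without. For listed starts, the difference from the Lyl1 peaks without Tal1 was also seen within the last 50% of the Lyl1 lines. There 4.56% of 3730 shared peaks and 13.3% of 722 Lyl1 peaks without Tal1 lay within 1 kb of a start. Gene boundaries were not counted in that stretch. In that stretch the shared peaks held a mean of 5.13 other factors and the Lyl1 peaks without Tal1 3.92, with Lmo2 at 97.4% and 83.9%. The stretch is not an even match, since 93.3% of Lyl1 peaks overlapped Tal1 in the sixth decile and 72.3% in the last. The mean number of other factors per shared peak was 5.70 and 4.66 in these deciles.

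Shared peaks near listed starts had other factors in somewhat different shares. Runx1 was at 66.8% of shared peaks within 1 kb of a start and 55.2% of those farther away, and Erg at 59.2% near and 52.2% farther. Meis1 went the other way, at 27.6% near and 36.0% farther. The mean number of other factors was 6.02 near and 6.13 farther. Shared peaks were also closer to each other, since 31.0% (30.0 to 32.1%) had another shared peak within 10 kb, against 16.5% (15.7 to 17.2%) of Tal1 peaks without Lyl1 with another of their own kind.

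By position, the shared peaks touched a large part of the genes. Of 21627 protein-coding genes, 8147 had a shared peak in the locus, meaning the gene body with 50 kb on either side, which is 37.7%. For Tal1 peaks without Lyl1 the share was 42.9%. With 10 kb on either side the share for shared peaks was 19.2%, and with 100 kb it was 51.8%. The nearest genes of all shared peaks were 4308 genes, and those of the Tal1 peaks without Lyl1 were 5303. At least 5 shared peaks lay in the locus of 469 genes (2.17%), and 266 genes were nearest to 5 or more shared peaks, against 214 for Tal1 peaks without Lyl1. A long gene has more room for peaks, and the gene lists below were not matched for length. A peak in the locus of a gene can also lie nearer to another gene.

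The genes of the 13 factors were all among those with a shared peak in the locus, 13 of 13 against 37.7% of all genes. With 10 kb on either side they were 84.6%, against 19.2% of all genes. Runx1 had 12 shared peaks in its locus, Erg 7, Fli1, Gfi1b and Lyl1 6 each, Gata2 and Spi1 5 each, Gfi1, Lmo2 and Meis1 4 each, Tal1 3, Cebpa 2 and Cebpb 1. Tal1 peaks without Lyl1 numbered 4 at Runx1, Meis1, Cebpa and Cebpb, 3 at Erg, Fli1 and Lmo2, 1 at Gfi1b, Gata2 and Tal1, and 0 at Lyl1, Spi1 and Gfi1. In these loci Cebpa and Cebpb had more unshared Tal1 peaks than shared ones. By nearest gene Cebpa again had more unshared peaks, with 1 shared and 3 unshared Tal1 peaks. The order was the other way at Cebpb, with 5 and 4, and Meis1 had 4 and 8.

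At Runx1 the 12 shared peaks carried 4 to 10 other factors. The peak with 10, at chr16:92800831-92801230 inside the gene and 25 kb downstream of the first listed start, lacked Lmo2 and held Gata2. Its neighbour at chr16:92801561-92801960, 24.3 kb downstream, held 9 and lacked Gata2 and Spi1. A pair of shared peaks lay upstream of the gene, by 41.4 kb with 9 factors and by 48.1 kb with 4.

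The genes of the pair itself differed. At Lyl1, the peak 1.38 kb upstream of the start (chr8:84699881-84700280) was line 6 of the Lyl1 list and held 9 other factors, all but Gata2 and Meis1. A second peak 0.203 kb downstream of the start held 7, and the other 4 lay 39.7, 19.0 and 10.6 kb upstream and 2.33 kb downstream with 6 or 7 factors each. At Tal1 the shared peaks were 3. The peak 0.27 kb downstream of the start (chr4:115056496-115056895) held 7 other factors, the peak 7.92 kb upstream 3, and the peak 39.5 kb downstream of the first listed start (chr4:115095737-115096136) 2.

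Several other factor genes held a shared peak with nearly every factor. In Meis1 the peak at chr11:18924827-18925226, 93.9 kb downstream of the start, held all 11, and another 48.8 kb downstream held all but Gata2. The peak 37.4 kb downstream of Cebpa (chr7:35156463-35156862) also held all 11, while the only shared peak of Cebpb, 2.44 kb upstream, held 3. In Erg, the peak with all 11 lay 147 kb downstream of the first listed start and the other 6 held 2 to 6. At Gfi1b the peak 22.5 kb downstream (chr2:28599244-28599643) and at Gfi1 the peak 23.9 kb upstream (chr5:107749525-107749924) held all but Gata2. At Gata2 itself, the peak inside the gene 9.32 kb downstream of the first listed start (chr6:88203012-88203411) held 8 factors including Gata2, and the other 4 peaks held no Gata2.

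**Figure D4:**
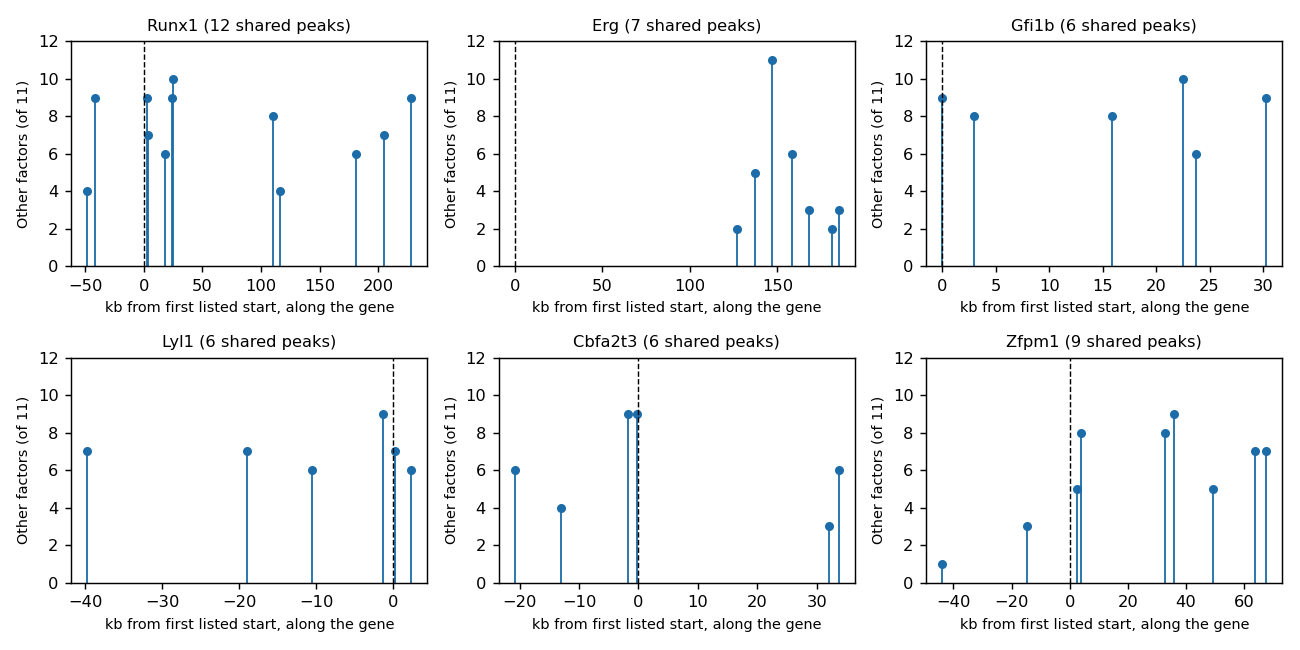
Shared peaks in the loci of Runx1, Erg, Gfi1b, Lyl1, Cbfa2t3 and Zfpm1, plotted by distance in kb from the first listed start (dashed line) and, on the vertical axis, by the number of the 11 other factors on each peak. Runx1 holds 12 shared peaks with 4 to 10 other factors, and the Lyl1 peak with the most, 9, lies 1.38 kb upstream.

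Genes known as targets of Tal1 from red cell, megakaryocyte and stem cell work formed another list. A shared peak lay in the locus of 14 of its 18 genes (77.8%), against 37.7% of all genes, and Tal1 peaks without Lyl1 in 61.1%, against 42.9%. With 10 kb on either side the share was 72.2%, against 19.2%. Cbfa2t3 had 6 shared peaks. A pair of them, 0.207 and 1.80 kb upstream of the first listed start (chr8:122699116-122699515 and chr8:122700714-122701113), held 9 factors each, and the first overlaps the promoter printed above. Runx3 had 8 shared peaks, Cdkn1a, the cell cycle inhibitor p21, 5, and Slc4a1, the red cell anion exchanger, 3. Kit, Gata1, Klf1 and Epb42 had 0 within 50 kb. Of the genes of the Tal1 and Lyl1 complex and its E protein partners, 15 of 25 (60%) had a shared peak, and 68.0% a Tal1 peak without Lyl1. Ssbp2, which stabilises Ldb1, had 5, Tcf4 3, Tcf12 2 and Ldb1 1, while Tcf3 had 0 shared peaks and 1 Tal1 peak without Lyl1.

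Lineage genes differed by list. B cell genes had a shared peak in 16 of 20 loci (80.0%), against 37.7% of all genes, and Tal1 peaks without Lyl1 in 70.0%, against 42.9%. Blnk, a B cell receptor adaptor, had 8, of which 3 held every factor but Gata2, and 0 Tal1 peaks without Lyl1. With 10 kb on either side Blnk had 3 shared peaks, and it was the nearest gene of only 3. Ikzf1 (Ikaros) had 5 and the early B cell factor Ebf1 4, while Pax5 had 0 shared peaks and 2 Tal1 peaks without Lyl1. T cell genes had a shared peak in 8 of 18 loci (44.4%), near the background of 37.7%, and a Tal1 peak without Lyl1 in 66.7%. Runx3 with 8, Notch1 with 3 and Cd4 with 3 led that list, and Cd3e, Cd3g, Cd8a, Tcf7, Bcl11b and Gata3 had 0. The 3 at Cd4 lay outside the gene, with 0 within 10 kb, and Cd4 was the nearest gene of 0 shared peaks.

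Erythroid genes had a shared peak in 13 of 20 loci (65.0%), against 37.7% of all genes, and a Tal1 peak without Lyl1 in 40.0%, which is near the 42.9% of all genes. Zfpm1 (Fog1), the partner protein of Gata1, led with 9 shared peaks, and Slc4a1 had 3, while Gata1, Klf1 and Alas2 had 0. Megakaryocyte and platelet genes had one in 11 of 18 (61.1%, interval 35.7 to 82.7%, which includes the 37.7% of all genes), and 50% had a Tal1 peak without Lyl1, against 42.9%. Itgb3, the platelet integrin beta chain, had 6 and Gp9, a chain of the von Willebrand receptor, 5. Itga2b, whose promoter is printed above, had 1.

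Granulocyte and monocyte genes had a shared peak in 14 of 25 loci (56.0%, interval 34.9 to 75.6%), and a Tal1 peak without Lyl1 in 72.0%, against 37.7% and 42.9% of all genes. Csf1r, the macrophage growth factor receptor, had 6 and 0 Tal1 peaks without Lyl1. Mpo had 5, among them the promoter peak 0.209 kb upstream with 8 factors, a peak 42.0 kb upstream with 10, all but Gfi1b, and a peak 39.6 kb upstream with Spi1 alone. Ctsg had 4, Elane 4 and Prtn3 4, the last pair being neighbours that share peaks. The granule genes Camp and Ltf had 0, as had S100a8, while the granule gene Ngp had 1 with 7 other factors. Mast cell and basophil genes stood at 7 of 11 (63.6%, interval 30.8 to 89.1%), and at 72.7% for Tal1 peaks without Lyl1. Both intervals for shared peaks include the 37.7% of all genes. Gata2 had 5, Mcpt8 4 and Mitf 3.

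Stem and early progenitor genes had a shared peak in 14 of 24 loci (58.3%, interval 36.6 to 77.9%, which includes the 37.7% of all genes), and a Tal1 peak without Lyl1 in 62.5%, against 42.9%. Flt3, the receptor for the growth factor in the medium, had 5 shared peaks, Angpt1 5, Cd34 3 and Myb 3, while Mecom, Hoxa9, Hoxa10 and Kit had 0. Of the cell cycle and survival genes, 10 of 16 had one (62.5%, interval 35.4 to 84.8%, which also includes 37.7%) and 43.8% a Tal1 peak without Lyl1, with 6 at Ccnd3, 5 at Bcl2, 4 at Cdk6 and 0 at Myc.

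Lists from outside blood gave the background by tissue. Liver genes had a shared peak in 3 of 19 loci (15.8%), heart and muscle genes in 3 of 20 (15%) and neuronal genes in 8 of 20 (40.0%). Their Tal1 peaks without Lyl1 stood at 26.3%, 55% and 40.0% in the same order. Housekeeping genes stood at 13 of 20 (65.0%), as high as several blood lists, and at 55% for Tal1 peaks without Lyl1. With 10 kb on either side, though, only 15% of the housekeeping genes had a shared peak, against 19.2% of all genes, 50% of the B cell genes and 55.6% of the megakaryocyte and platelet genes. Heart and muscle genes reached 55% with 100 kb, where the background was 51.8%. The lists are short, and the exact intervals of their shares with 50 kb are wide. They also overlap. Tal1, Lyl1, Lmo2, Gata2 and Runx1 are both factor genes and complex and partner genes. Fli1, Gata2, Gfi1b, Lyl1 and Runx1 are both factor genes and known Tal1 targets. The erythroid list also shares genes with the known targets. The results of these lists are therefore not separate from each other. The interval lay above 37.7% for the factor genes, the B cell genes, the known Tal1 targets, the erythroid genes, the housekeeping genes and the complex and partner genes, and it included 37.7% for the other 9 lists. This sorting is not a test of any list. The intervals cover counting error only and treat genes as separate, although neighbours such as Elane and Prtn3 share peaks.

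**Figure D5:**
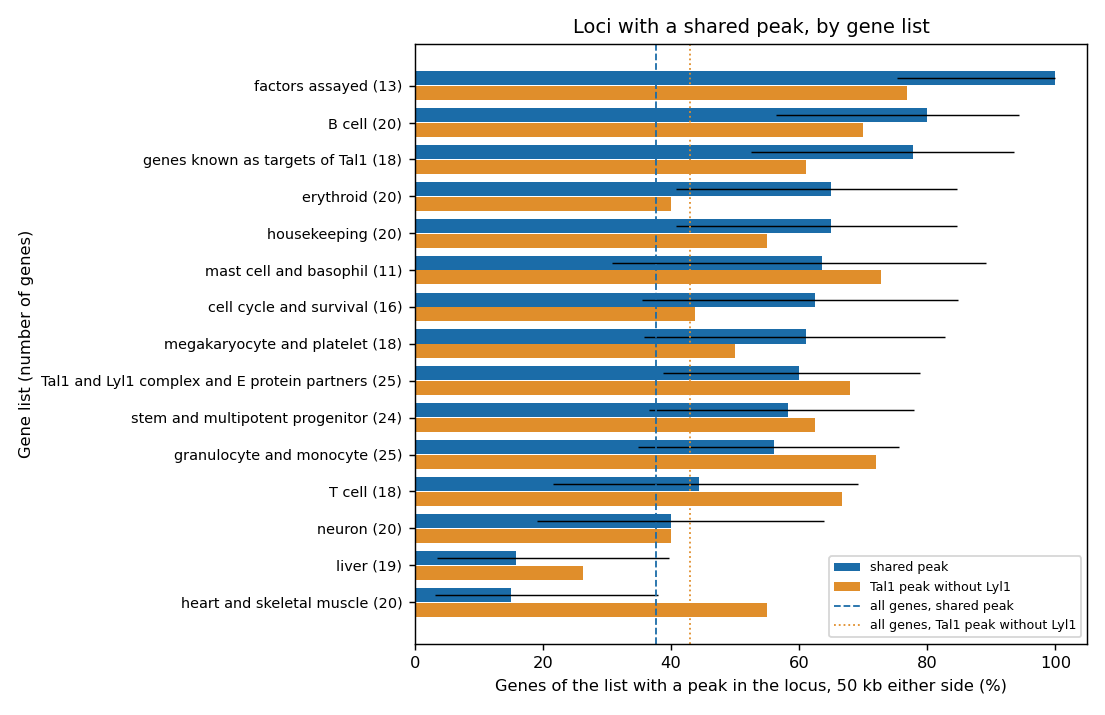
Share of genes per list, in percent, with a shared peak or with a Tal1 peak without Lyl1 in the gene body and 50 kb on either side, with exact 95% intervals for shared peaks (black lines) and the shares over all 21627 protein-coding genes (vertical lines). Shared peaks stand at 100% for the factor genes, 80.0% for B cell genes and 15% for heart and muscle genes, with 37.7% over all genes.

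Over the whole genome, Runx1 was nearest to the most shared peaks, 20 of them, and to 8 Tal1 peaks without Lyl1. Pik3r1, the regulatory subunit of the kinase PI3K, followed with 17 and 5. Zfp608 had 16 and 6, Gse1 15 and 12, the TGF-beta effector Smad3 13 and 3, and the mRNA decay protein Zfp36l2 13 and 5. With 12 shared peaks came Dusp6, a phosphatase of ERK, Id2, an inhibitor of E proteins, Pde4d, Runx2 and Trps1, beside 1, 6, 10, 3 and 6 Tal1 peaks without Lyl1. With 11 came Ly86, Slc9a9, Tns3 and Zmiz1, beside 4, 2, 5 and 10. Gene size and surroundings differ widely in this group, since the Pde4d gene spans 1302 kb and the Id2 gene 2.29 kb, against a median of 17.3 kb over all protein-coding genes.

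Besides the 6 printed promoters, 9 further genes of the lists had a promoter window on a shared peak. The Gp9 and Lyl1 windows held 7 other factors, Fcgr1 6, Igll1, a part of the surrogate light chain of early B cells, 5, Cd22 4, and Cd5, Erg, Pf4 and Runx3 3 each. The Erg window is that of a later listed start, where the shared peak lay 0.198 kb away.

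Blood microRNAs were looked up in the same way, from a list written after the other values were seen. Of 22 hairpins found, 6 had a shared peak within 10 kb and 14 within 50 kb, against 10.5% and 34.1% of all 1005 hairpins. Hairpins that lie close together, such as Mir221 and Mir222, were counted singly, so these are not counts of separate loci. The mature sequences (RefSeq, GRCm38.p6) are printed to name these 6 by their seeds, bases 2 to 8 in capitals, since the seed sets which transcripts a microRNA can pair with. None of the 6 shares its seed with another.
miR-223-3p: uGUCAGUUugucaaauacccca
miR-142a-3p: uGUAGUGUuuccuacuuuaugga
miR-21a-5p: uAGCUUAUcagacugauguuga
miR-23a-3p: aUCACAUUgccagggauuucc
miR-27a-3p: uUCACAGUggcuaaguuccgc
miR-24-3p: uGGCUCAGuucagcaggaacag

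Mir223, the microRNA of granulocytes and monocytes, had 1 shared peak within 10 kb, 3.04 kb upstream, with 8 other factors. Mir23a, Mir27a and Mir24-2 are a cluster on chromosome 8 and share 3 shared peaks, the nearest of them 0.544 kb upstream of Mir23a with 8 other factors and 0.388 kb downstream of Mir24-2 with 9. The peak nearest to Mir142, a microRNA found across blood cells, lay 2.70 kb upstream and held 1 other factor. It is the Spi1 peak already given for Mpo, which lies on the same stretch of chromosome 11. Mir21a had 1 shared peak, 9.10 kb upstream with 8 factors. Mir126a, a microRNA of stem cells, had 0 within 10 kb and 5 within 50 kb.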

How the data were processed

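ChIP-seq was done on 14 libraries of Hoxb8-FL cells, and 13 factor lists were used, with no list for the IgG library used here. Each list deposited by the authors holds peak positions in bp (chromosome, start and end) and no score or count, so no enrichment value was available. Bowtie2, MACS2 and bedtools and the builds mm10 and GRCm38 are named per the submitters' processing notes. The sources used here give neither their versions, roles and thresholds nor the meaning of the line order. Per the labels, chromatin was sonicated for 7 min in cycles of 30 s on and 30 s off.

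Overlaps of 1 bp or more on the 19 autosomes and X were computed in Python 3.11.15 (numpy 2.4.6, pandas 2.3.3, scipy 1.17.1), and the counts for all 12 partner lists were equal to those of bedtools 2.31.1. The code was also checked on simulated data. Genes, starts, promoter windows and microRNAs came from RefSeq tables of GRCm38.p6. Of 289 gene list entries in 15 lists, 287 were found by symbol. Loci were gene bodies extended by 50 kb each way, and a peak was counted where its midpoint lay inside. The nearest gene was the one that holds the midpoint, and the shortest where several did. Promoter windows ran from 250 bases before to 50 after a start. Intervals are exact Clopper-Pearson at 95%.

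The genes named were the 13 factor genes, the 3 genes per list with the most shared peaks, and the 15 genes nearest to the most shared peaks. The 5 peaks with the most and the 5 with no other factors, and 6 promoters, were chosen by the same kind of fixed rule, and 1 of these peaks is not reported here. Further genes were chosen after their values were seen, as were the microRNA list, the single E-box forms and the splits by line order. The members and lists were chosen with earlier results of these data known. Alternatives changed the overlap, the windows, the gene set, the lines used and the factors counted. A planned motif search at peak centres was not run, because no genome sequence was used here.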

Additional observations from a re-analysis of the deposited data

How the results depend on the processing

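The share of Lyl1 peaks that overlap Tal1 was 91.4%, and became 96.5% with the first 50% of the lines of both lists. Counting Tal1 peaks gave 47.4%. The mean number of other factors per shared peak was 6.13, and became 5.93 with an overlap of 200 bp, 4.53 with the first 50% of the lines of the other 11 lists and 5.36 without Spi1. The share of shared peaks near a gene boundary was 6.35% within 1 kb, 10.7% within 2 kb, 21.7% within 5 kb and 11.7% when all genes of the table were used. The genes with a shared peak in the locus numbered 8147, 4146 with 10 kb on either side and 5388 with the first 50% of the Lyl1 lines. The other windows, the larger gene set, the list counted and the factor left out change by construction what is counted, and for the alternatives by line order and by overlap the cause was not tested. The difference between shared peaks and Tal1 peaks without Lyl1 in the share near a gene boundary changed sign, to -0.0739 percentage points, within the first 50% of the Tal1 lines, and the cause was not tested. Of 55 alternative values of the 11 factor differences between shared peaks and Tal1 peaks without Lyl1, 0 changed sign, and the lowest was 1.29 percentage points. No paired analysis was possible because each factor has 1 library and no result comes from a test, and for the same reason no replicate could be left out. Depth is unknown, so a factor missing from a peak was not detected at the authors' threshold rather than absent.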
